A study of Mus musculus with 6 samples.

Results

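The 33 transcripts described here encode plasma proteins, apolipoproteins, clotting factors and enzymes that are best known from hepatocytes, the parenchymal cells of the liver. They were taken by gene symbol from the 21700 genes of the expression table, and all 33 symbols had a row. Here they were read in another liver cell, the biliary epithelial cell, which lines the bile ducts. Sorted biliary epithelial cells came from the livers of wild-type (WT) female C57BL/6 mice, 3 samples from non-pregnant mice and 3 from mice pregnant at dpc8, which is 8 days post coitum. No source used here gives the age of the mice or the antibodies that set the sorting gate. The cells passed through liver perfusion, enzyme digestion, a slow spin that removed the parenchymal fraction and a fluorescence-activated sort, and total RNA depleted of ribosomal RNA was sequenced. The labels do not state whether each sample was a separate animal, so every p-value speaks of the spread between the samples alone, and that spread may be technical.

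Hepatocytes and biliary epithelial cells arise from a common embryonic progenitor, the hepatoblast. Hepatocytes secrete most of the proteins of blood plasma, among them albumin, the lipoprotein shells, the fibrinogen chains and the inhibitors of blood proteases. Transcription factors such as HNF4 alpha bind the promoters of many of these genes, and the bile duct is known for its own factors, among them SOX9.

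Values are FPKM, the fragments of a gene per kilobase of its exons, scaled to the depth of the library. FPKM is therefore a level per length, and levels of different genes are compared on it. Libraries held between 25047887 and 35083751 recovered fragments. All 6 had high levels of the biliary markers: Spp1 stood between 3941 and 5941 FPKM, Epcam between 182 and 195, Krt19 between 220 and 386, Sox9 between 276 and 332 and Krt7 between 18.7 and 31.5. None of the 12 biliary markers passed the test, but all 12 had a higher estimate in pregnancy, with a median log2 change of 0.34. Of these, 6 had an unadjusted p under 0.05 and 8 had no overlap between the groups. Among all tested genes, 7.09% were higher at that p and 9.9% were higher without overlap. Non-pregnant library 3 was the lowest for 9 of the 12, where 28.5% of all tested genes had their lowest value. Non-pregnant library 2 stood apart by endothelium: all 10 markers of sinusoidal endothelium were highest there, at a summed level of 272 FPKM against 21.9 to 40.2 FPKM in the other libraries. Non-pregnant library 3 held the highest value of 35.8% of all tested genes. Macrophage markers had a summed level of 109 to 181 FPKM in pregnancy against 57.4 to 89.9 FPKM in non-pregnant libraries. All 10 tested markers of that list had a higher estimate in pregnancy, and 4 passed the test upward, against 0.0613% of all tested genes. The size of the change differed: Cd5l went from 0.918 to 14.7 FPKM in the means and C1qc from 0.506 to 8.0 FPKM. Csf1r (32.5 and 34.7 FPKM) and Cd68 (38.1 and 38.9 FPKM), both in that sum, were nearly level. Stellate cell markers summed to between 42.3 and 48.5 FPKM, and most of this was Rgs5 (27.8 and 29.9 FPKM in the means). Of the 6 tested stellate markers, 3 had a higher and 3 a lower estimate in pregnancy. Dcn and Reln were lower without overlap, as were 12.2% of all tested genes (limma adjusted p = 0.301 and 0.335). Lymphocyte markers summed to between 1.65 and 3.71 FPKM and red cell markers to at most 0.835 FPKM.

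The 33 transcripts were not at 1 common level but ran over more than 4 orders of magnitude in the same sorted samples. Their order was much the same in every library. Which cells of a sorted sample held each transcript was not tested. Apoe and Alb were the third and the fourth highest of all 21700 genes, above 1000 FPKM. Ambp, Apoc1, Ttr and Trf stood between 100 and 1000 FPKM, 10 members between 10 and 100 FPKM, 14 between 1 and 10 FPKM, and 3 under 1 FPKM. The 6 highest members held 94.4% of the summed FPKM of the set. Summed over the 33 members, the share of all recovered fragments was 1.32%, 1.57% and 1.52% outside pregnancy and 1.44%, 1.41% and 1.32% in pregnancy, each in the order of libraries 1 to 3. The mean share was 1.47% ± 0.129 (SD, n = 3) and 1.39% ± 0.0648 (SD, n = 3), a difference smaller than the spread between non-pregnant libraries. Spearman correlations of the levels of the 33 members between libraries lay between 0.971 and 0.994 over the 15 pairs of libraries, given as a description since the libraries share the same genes and their lengths.

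**Figure D1:**
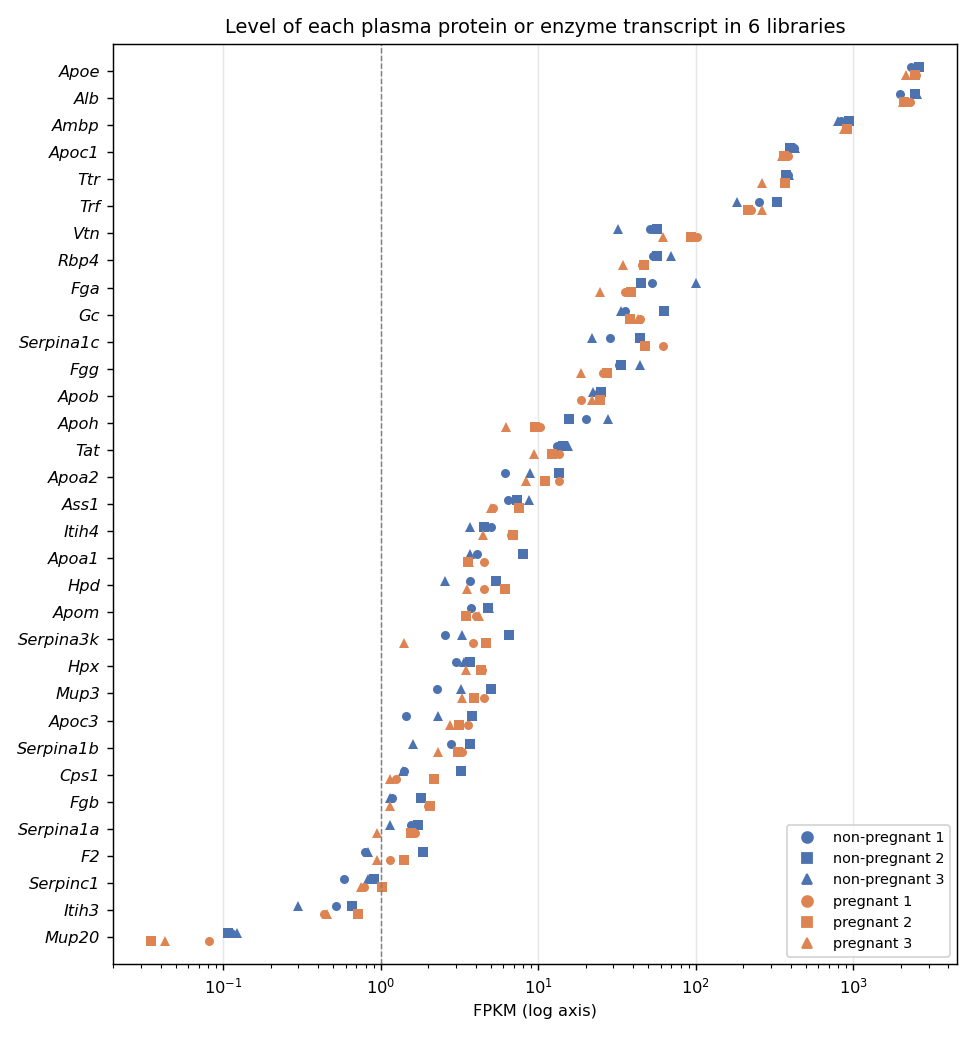
FPKM of each of the 33 transcripts in each of the 6 libraries, on a log axis, ordered by the mean; blue symbols are non-pregnant and orange symbols pregnant libraries, and the dashed line marks 1 FPKM, the mean level from which genes were tested. Apoe and Alb lie above 1000 FPKM in all 6 libraries, 14 transcripts have a mean between 1 and 10 FPKM and 3 a mean below 1 FPKM.

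Within that order, few neighbours were separate. Of the 32 pairs of neighbours by mean level, 11 kept their order in all 6 libraries, and for 4 the ranges over the 6 libraries did not touch. These 4 gaps lay between Alb and Ambp, between Ambp and Apoc1, between Trf and Vtn, and between Itih3 and Mup20. In the other 28 pairs the ranges overlapped. In 7 of these 28 the order was still the same in each library: Apoe above Alb, Ttr above Trf, Tat above Apoa2, Mup3 above Apoc3, Serpina1b above Cps1, F2 above Serpinc1 and Serpinc1 above Itih3. In the rest the order changed between libraries.

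Carriers and binding proteins made up the top of the set together with apolipoproteins. Alb, which encodes albumin, the main carrier protein of plasma, stood at 1973, 2460 and 2550 FPKM in the non-pregnant and at 2274, 2094 and 2074 FPKM in the pregnant libraries. The 3 pregnant values lay inside the non-pregnant range (log2 change -0.11 ± 0.157, SE; 95% interval -0.47 to 0.26; limma adjusted p = 0.754). Alb (chromosome 5, 90460897 to 90476602 in mm10, as are all gene positions here) alone took between 0.458% and 0.599% of the recovered fragments of a library. Ambp, whose protein is split into the carrier alpha-1-microglobulin and the protease inhibitor bikunin, ranked 11th of all genes at 859 ± 75.5 FPKM (SD, n = 3) and 902 ± 21.2 FPKM (SD, n = 3). Its groups overlapped, with the lowest and the highest of the 6 values both in non-pregnant libraries.

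Ttr, which encodes transthyretin, carrier of thyroxine and partner of the retinol carrier, stood at 386, 374 and 387 FPKM outside pregnancy and at 369, 367 and 264 FPKM in pregnant libraries. The groups did not overlap, but 2 of the 3 pregnant values lay within 10 FPKM of the lowest non-pregnant one (limma adjusted p = 0.502). Rbp4, the retinol carrier itself, stood at 53.2, 56.5 and 69.4 FPKM outside pregnancy and at 45.6, 46.6 and 34.5 FPKM in pregnant libraries. The 3 pregnant values were the lowest, by 0.708-fold in the means, and did not pass the test (log2 change -0.49 ± 0.144, SE; unadjusted p = 0.00952; limma adjusted p = 0.298). The level of Ttr over that of Rbp4 was 7.26, 6.63 and 5.58 in non-pregnant and 8.09, 7.87 and 7.65 in pregnant libraries, so this ratio was higher in each pregnant library than in each non-pregnant one. It was not alone among the ratios computed. Fga and Fgg over Fgb, Ambp over Itih2, and Serpina1c over Serpina1a and Serpina1b also separated the groups, while others, such as Apoe over Apoc1, did not. No ratio was tested.

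Trf, the iron carrier transferrin, stood at 255 ± 72.6 FPKM (SD, n = 3) and 233 ± 25.0 FPKM (SD, n = 3), between a lowest value of 183 FPKM in non-pregnant library 3 and a highest of 328 FPKM in non-pregnant library 2. Its level is uncertain, since 78.6% of the 75-base windows of its transcript are also found in the annotated gene Gm20425. Gc, the vitamin D carrier, stood at 62.4 FPKM in non-pregnant library 2 and between 33.5 and 44.1 FPKM in the other 5. Hpx, which binds free heme, stood between 3.0 and 4.38 FPKM. The major urinary proteins, which bind pheromones in mouse urine, were low. Mup3 stood between 2.29 and 4.99 FPKM, and Mup20 had between 1 and 4 fragments in a library. Pooled over the libraries of a group, Mup20 had 10 fragments in the non-pregnant and 4 in the pregnant samples, a depth-scaled ratio of 0.457 (95% counting interval 0.105 to 1.58), and this interval covers counting error only. No direction for Mup20 was detectable at this depth.

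The 8 apolipoproteins, the protein shells of lipoprotein particles and related lipid binders, ranged from Apoe near the top of the transcriptome to Apoc3 at a few FPKM. Apoe, a ligand of lipoprotein receptors, stood at 2316, 2609 and 2588 FPKM outside pregnancy and at 2503, 2459 and 2162 FPKM in pregnant libraries. The groups overlapped (log2 change -0.08 ± 0.146, SE; 95% interval -0.42 to 0.26; limma adjusted p = 0.811). Apoc1, which modulates the enzymes and receptors that act on lipoproteins, lies beside Apoe on chromosome 7 (19689481 to 19692660 and 19696109 to 19699188). It stood at 418, 395 and 426 FPKM outside pregnancy and at 382, 363 and 353 FPKM in pregnant libraries. The pregnant values were the 3 lowest, 0.887-fold in the means, without passing the test (log2 change -0.17 ± 0.0943, SE; limma adjusted p = 0.431). Apoe over Apoc1 stayed between 5.55 and 6.77 in the 6 libraries.

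The structural proteins of high-density lipoprotein were far lower than Apoe. Apoa1, the main one, stood between 3.59 and 4.50 FPKM in 5 libraries and at 8.03 FPKM in non-pregnant library 2. Alb exceeded it between 306-fold and 694-fold. Apoa2 stood at 6.18, 13.5 and 8.88 FPKM outside pregnancy and at 13.5, 11.1 and 8.31 FPKM in pregnant libraries, and exceeded Apoa1 between 1.51-fold and 3.09-fold. Apoc3, an inhibitor of lipoprotein lipase that neighbours Apoa1 on chromosome 9, stood between 1.45 and 3.82 FPKM, so that Apoc1 exceeded it between 104-fold and 289-fold. Apob, the scaffold of very-low-density lipoprotein, stood at 24.3, 24.8 and 22.1 FPKM outside pregnancy and at 18.6, 24.5 and 22.1 FPKM in pregnant libraries. Apom, a carrier of sphingosine-1-phosphate, stood between 3.48 and 4.88 FPKM.

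Apoh had the smallest p of the 30 tested members. It encodes beta-2-glycoprotein I, a plasma protein that binds negatively charged phospholipids, and lies on chromosome 11 (108343354 to 108414396). It stood at 20.2, 15.6 and 27.7 FPKM outside pregnancy and at 10.3, 9.48 and 6.20 FPKM in pregnant libraries. Each pregnant value was below each non-pregnant one, and the mean was 0.408-fold that of the non-pregnant group. In the fit over all genes this did not pass the threshold (log2 change -1.19 ± 0.227, SE; 95% interval -1.72 to -0.67; unadjusted p = 0.000867; limma adjusted p = 0.205). Without non-pregnant library 2 the change was -1.38 with a limma adjusted p of 0.0351, and Apoh was then 1 of 2 members called, where 1.17% of all tested genes were. In a bulk sample, fewer cells of a type and less RNA per cell cannot be told apart, for Apoh and for the other transcripts alike.

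Fibrinogen is built from 3 chains in equal numbers, and the 3 transcripts were not equal in these samples. Fga, Fgb and Fgg lie side by side on chromosome 3 (83026076 to 83033627, 83040141 to 83049863 and 83007724 to 83015049). Fga, the alpha chain, stood at 52.8, 45.1 and 100.4 FPKM outside pregnancy and at 35.5, 38.5 and 24.8 FPKM in pregnant libraries. Fgg, the gamma chain, stood at 32.4, 33.5 and 43.9 FPKM outside pregnancy and at 25.6, 27.3 and 18.6 FPKM in pregnant libraries. Fgb, the beta chain, stood at 1.18, 1.81 and 1.15 FPKM outside pregnancy and at 2.0, 2.06 and 1.14 FPKM in pregnant libraries. Fga exceeded Fgb between 17.8-fold and 87.5-fold and Fgg exceeded it between 12.8-fold and 38.2-fold, while Fga over Fgg stayed between 1.34 and 2.29. The Fgb values rest on between 110 and 243 recovered fragments per library.

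In pregnancy the means of Fga and Fgg were 0.498-fold and 0.651-fold the non-pregnant ones, and that of Fgb was 1.26-fold. The groups did not overlap for Fga (log2 change -0.92 ± 0.292, SE; 95% interval -1.60 to -0.24; limma adjusted p = 0.301). The same held for Fgg (log2 change -0.60 ± 0.166, SE; 95% interval -0.99 to -0.22; limma adjusted p = 0.295). The Fgb groups overlapped (log2 change 0.19 ± 0.173, SE; limma adjusted p = 0.607). None passed the test. Non-pregnant library 3 held the highest value of Fga and Fgg, and without it the changes were -0.58 and -0.47.

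**Figure D2:**
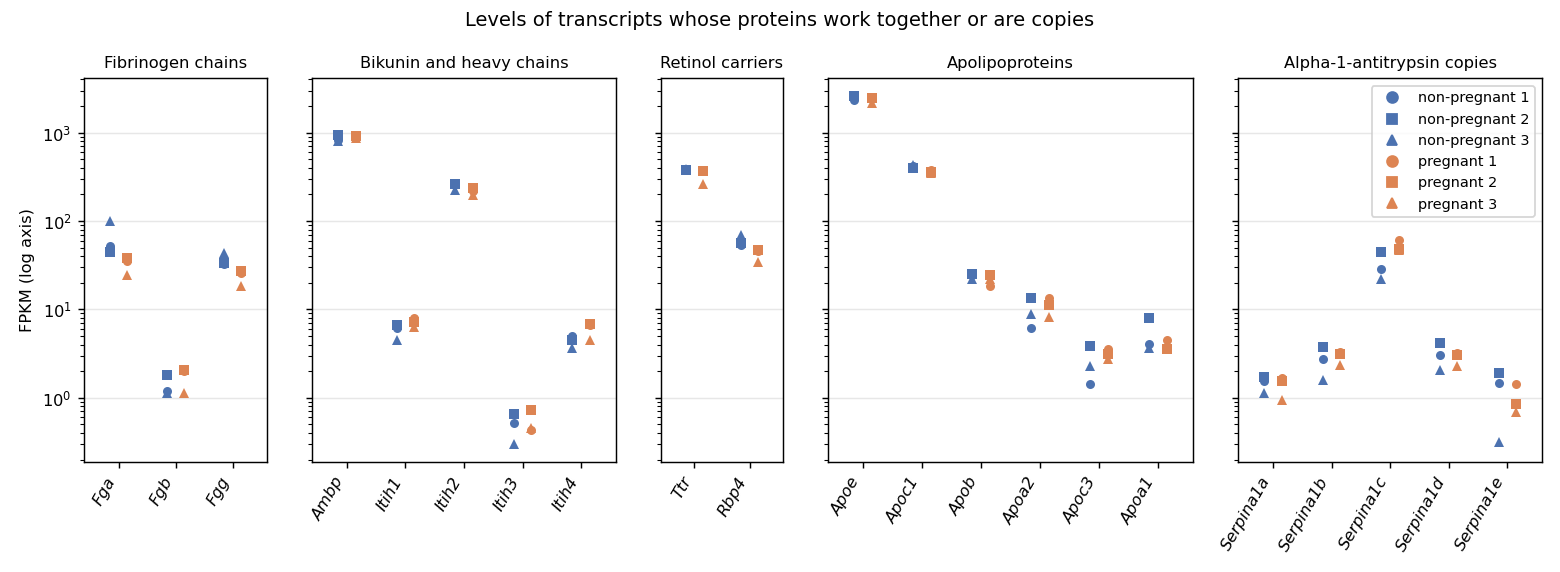
FPKM on a log axis, per library, of transcripts whose proteins work together, share a family or are close copies. Blue symbols are non-pregnant and orange symbols pregnant libraries, and Itih1, Itih2, Serpina1d and Serpina1e are shown beside the 33 transcripts. Fgb lies at 1.14 to 2.06 FPKM below Fga and Fgg in every library, and Serpina1c lies at 21.9 to 61.7 FPKM above its copies.

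The promoters of the fibrinogen genes are shown because their transcripts differ in level, with that of Alb beside them. Each line gives the 80 bases before the RefSeq start in GRCm38.p6, 5' to 3' on the strand of the gene. The RefSeq start need not match the gene positions given in this report, and most of the Fga window lies inside the gene as placed there. Distances to the half-site are counted from the RefSeq start. Capitals mark GTTAAT or its reverse complement ATTAAC, which is 1 arm of a palindrome known from liver promoters (GTTAAT, any base, ATTAAC).
Alb, chr5:90460790-90460869, plus strand: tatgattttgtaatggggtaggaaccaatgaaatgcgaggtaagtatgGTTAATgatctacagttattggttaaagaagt
Fga, chr3:83026073-83026152, plus strand: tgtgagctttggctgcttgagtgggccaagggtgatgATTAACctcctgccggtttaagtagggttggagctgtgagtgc
Fgb, chr3:83049864-83049943, minus strand: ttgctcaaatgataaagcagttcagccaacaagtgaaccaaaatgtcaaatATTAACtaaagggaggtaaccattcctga
Fgg, chr3:83007644-83007723, plus strand: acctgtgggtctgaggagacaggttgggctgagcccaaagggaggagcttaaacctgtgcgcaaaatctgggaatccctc
The first letter of the half-site stood 32 bases before the start in Alb, 43 in Fga and 29 in Fgb. No such letters were found in the window of Fgg. Any link between the half-site and the level of a chain was not tested. Over the 250 bases before the start, on both strands, the half-site was found in 9 of the 30 promoters that the RefSeq table lists for 26 of the members, and in 6.43% of all its 32851 promoters. The 9 were those of Alb, Apoe, Fga, Fgb, Gc, Serpina1a, Serpina1b, Serpina1c and Vtn. The Serpina1a, Serpina1b and Serpina1c promoters are close copies of one another, so their matches are not independent of each other. The whole palindrome, searched as those letters on both strands, was found in 0 of the 30 and in 0.00913% of all promoters. Apoc1, Apoc3, Cps1, Mup20, Serpina3k, Trf and Ttr had no entry there. A match of letters is a description of the sequence and not a bound site.

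Vtn and F2 complete the clotting and adhesion proteins. Vtn encodes vitronectin, an adhesive plasma and matrix protein that binds integrins and the plasminogen activator inhibitor PAI-1, and lies on chromosome 11 (78499091 to 78502324). It stood at 51.3, 56.5 and 31.9 FPKM outside pregnancy and at 102, 93.7 and 61.4 FPKM in pregnant libraries. Each pregnant value was above each non-pregnant one, and the mean was 1.84-fold that of the non-pregnant group. It did not pass the test over all genes (log2 change 0.87 ± 0.249, SE; 95% interval 0.29 to 1.45; unadjusted p = 0.00852; limma adjusted p = 0.295). F2, which encodes prothrombin, stood between 0.798 and 1.86 FPKM, with the highest value in non-pregnant library 2.

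The protease inhibitors hold the alpha-1-antitrypsin copies, a mouse gene cluster on chromosome 12 whose human counterpart is the single gene SERPINA1, an inhibitor of neutrophil elastase. Serpina1c (103894926 to 103904887) stood at 28.4, 44.2 and 21.9 FPKM outside pregnancy and at 61.7, 47.7 and 47.5 FPKM in pregnant libraries. Its groups did not overlap, though non-pregnant library 2 came within 4 FPKM of the lowest pregnant value. The mean in pregnancy was 1.66-fold that of the non-pregnant group, without passing the test (log2 change 0.76 ± 0.234, SE; 95% interval 0.22 to 1.3; unadjusted p = 0.0121; limma adjusted p = 0.301). It was the other member called without non-pregnant library 2 (log2 change 1.03; limma adjusted p = 0.0351). Serpina1a (103853589 to 103863562) stood between 0.949 and 1.73 FPKM and Serpina1b (103728156 to 103830373) between 1.60 and 3.71 FPKM. Serpina1c exceeded Serpina1a between 18.2-fold and 50.1-fold and Serpina1b between 10.2-fold and 20.5-fold.

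These 3 copies are hard to tell apart by short reads, and a stretch of their coding sequence is shown for that reason. Their coding sequences are 1239 bases long and 97.0% identical between Serpina1a and Serpina1b, 98.5% between Serpina1a and Serpina1c, and 96.6% between Serpina1b and Serpina1c. Positions that differ among the 3 copies number 49 in all, and 12 of them fall in the stretch from coding position 1099 to 1158, which encodes part of the loop that proteases cleave. The lines give that stretch from GRCm38, 5' to 3', with capitals at the differing positions.
Serpina1a, chr12:103853759-103853818, minus strand: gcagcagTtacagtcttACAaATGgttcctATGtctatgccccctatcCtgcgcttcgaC
Serpina1b, chr12:103728326-103728385, minus strand: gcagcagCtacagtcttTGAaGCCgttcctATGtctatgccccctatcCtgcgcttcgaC
Serpina1c, chr12:103895096-103895155, minus strand: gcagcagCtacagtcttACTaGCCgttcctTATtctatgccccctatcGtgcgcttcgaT
Of the 75-base windows of the transcripts, 66.1% for Serpina1c, 57.5% for Serpina1a and 25.1% for Serpina1b are also found in another gene. How reads that match more than 1 gene were counted is not given in the sources used here, so the split of fragments between the copies is uncertain. The 80 bases before the start of each copy follow, again with the half-site in capitals.
Serpina1a, chr12:103863620-103863699, minus strand: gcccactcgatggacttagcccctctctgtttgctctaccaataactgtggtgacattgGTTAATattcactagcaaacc
Serpina1b, chr12:103738190-103738269, minus strand: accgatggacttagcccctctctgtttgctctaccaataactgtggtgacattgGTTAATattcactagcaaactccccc
Serpina1c, chr12:103904951-103905030, minus strand: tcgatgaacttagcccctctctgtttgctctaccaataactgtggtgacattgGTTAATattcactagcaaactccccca
The half-site began 21, 26 and 27 bases before the start in Serpina1a, Serpina1b and Serpina1c. The window of each of the 3 copies held the half-site, and any link to their levels was not tested.

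The other inhibitors were low. Serpina3k, a kallikrein-binding serpin, stood at 6.50 FPKM in non-pregnant library 2 and at 1.40 FPKM in pregnant library 3, the widest ratio between libraries in the set, 4.63-fold. Serpinc1, which encodes antithrombin, stood between 0.584 and 1.02 FPKM, on 143 to 270 recovered fragments over a long union of exons. Itih3 and Itih4 belong to the heavy chain family of the inter-alpha-trypsin inhibitors, in which some heavy chains are joined to bikunin. Whether a given heavy chain is joined to bikunin was not tested. Itih3 stood between 0.297 and 0.721 FPKM. Itih4 stood at 5.01, 4.53 and 3.69 FPKM outside pregnancy and at 6.70, 6.88 and 4.46 FPKM in pregnant libraries, with overlapping groups. Ambp exceeded Itih4 between 132-fold and 217-fold. The heavy chain gene Itih2, named here after its values were seen, stood between 196 and 262 FPKM, so that Ambp exceeded it between 3.18-fold and 4.47-fold, while Itih1 stood between 4.48 and 8.06 FPKM. Among the heavy chains measured, Itih2 was the one within 10-fold of Ambp.

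The 4 intracellular enzymes were present at low levels. Cps1 and Ass1 encode urea cycle enzymes, the former mitochondrial and the latter cytosolic. Cps1 stood between 1.15 and 3.23 FPKM, highest in non-pregnant library 2, and Ass1 between 5.04 and 8.67 FPKM. Ass1 shares 46.9% of its 75-base windows with the annotated gene Gm5424. Tat and Hpd encode the first enzymes of tyrosine breakdown. Tat stood at 13, 14.3 and 15.4 FPKM outside pregnancy and at 13.6, 12.3 and 9.41 FPKM in pregnant libraries, and Hpd between 2.56 and 6.16 FPKM. The groups overlapped for all 4 enzymes.

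Across the whole set, no member passed the test. Of the 33, 30 had the mean of at least 1 FPKM that the test required, and 3 (Serpinc1, Itih3 and Mup20) did not. With limma 0 of the 30 had an adjusted p under 0.05, against 10 of 11412 genes tested (0.0876%), 7 of them higher (0.0613%) and 3 lower (0.0263%) in pregnancy. At an unadjusted p under 0.05 there were 6 members (20%), against 13.4% of all tested genes. Vtn and Serpina1c were higher (7.09% of all genes) and Apoh, Fgg, Rbp4 and Fga lower in pregnancy (6.30% of all genes). With limma-voom on recovered fragments, 0 were called and 7 had an unadjusted p under 0.05, against 13% of all genes tested that way. For 8 of the 30 members (26.7%) there was no overlap between the groups, against 22.1% of all tested genes. The pregnant libraries were higher for 2 of these members (9.90% of all genes) and lower for 6 (12.2%), the 6 being Apoc1, Apoh, Fga, Fgg, Rbp4 and Ttr. The median log2 change of the 30 members was -0.08, with 12 above and 18 below 0, and that of all tested genes was -0.02. This direction turned without non-pregnant library 2, where the median was 0.06 with 17 above and 13 below 0. The biliary markers, with their median of 0.34, lay on the other side of 0 from the members, and their part in the members' values was not tested. By role, the median was -0.06 for carriers, -0.14 for apolipoproteins, 0.11 for protease inhibitors, 0.03 for clotting and adhesion proteins and -0.24 for the enzymes. With array weights, which weight each library by how well the genes fit in it, 7 members were called against 11.4% of all tested genes. Non-pregnant library 1 had a weight of 3.68 there, against 0.411 and 0.205 for non-pregnant libraries 2 and 3, so the non-pregnant side of these calls rests mostly on 1 library. The median of the members was then 0.06, with 17 above and 13 below 0. Those called were Apoh and Fga, lower in pregnancy, and Vtn, Serpina1c, Apoa2, Apoc3 and Hpx, higher.

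**Figure D3:**
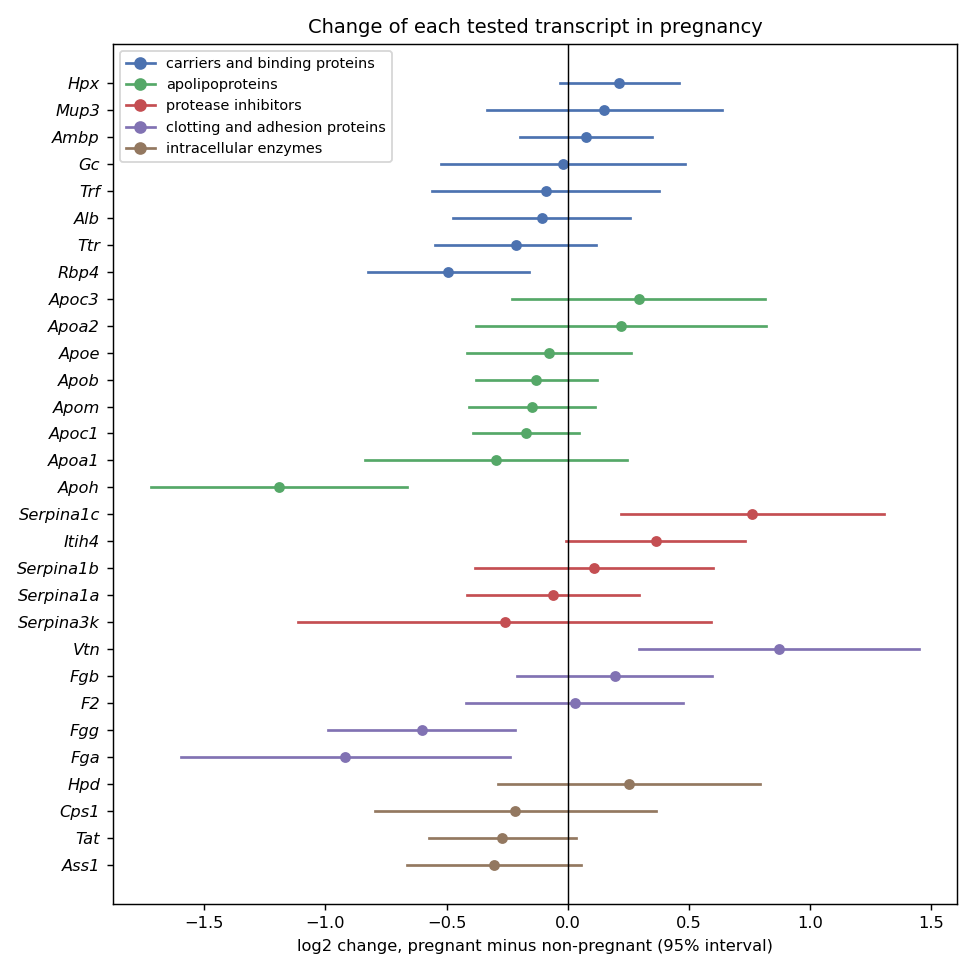
Log2 change of the 30 tested transcripts, pregnant minus non-pregnant, on log2(FPKM + 1); points are estimates, lines 95% intervals, and colours the roles of the proteins. The intervals of Apoh, Fga, Fgg, Rbp4, Vtn and Serpina1c do not reach 0 before adjustment over all genes, and none of the 30 passed after it.

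**Figure D4:**
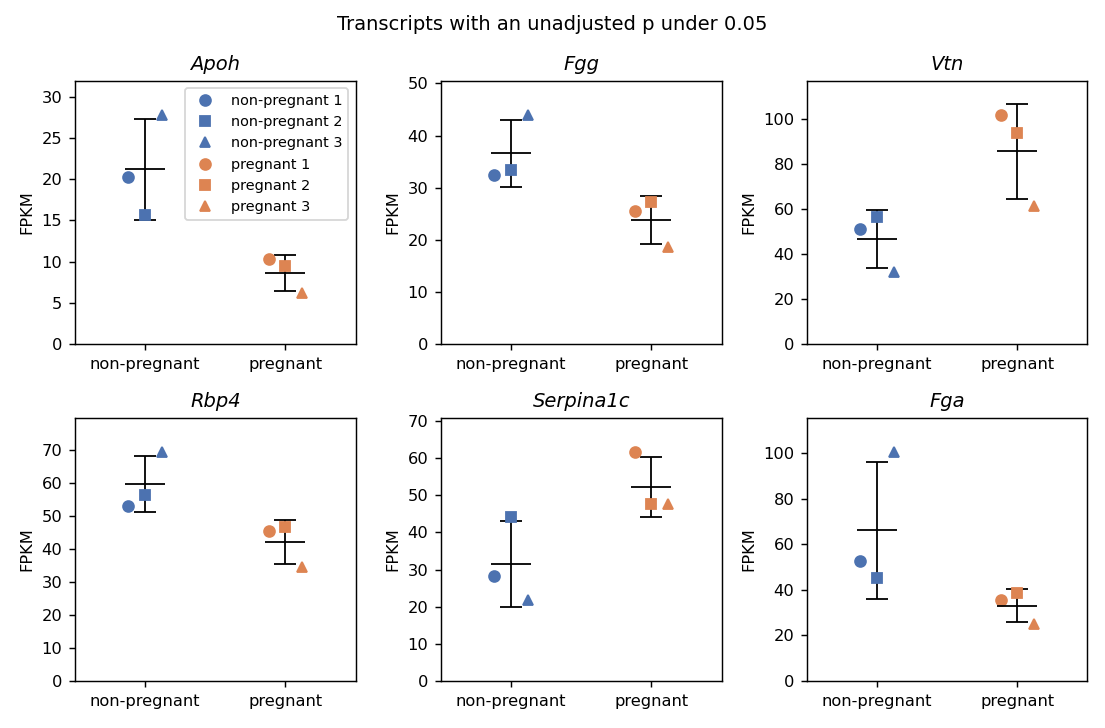
FPKM per library of the 6 transcripts with an unadjusted p under 0.05; symbols are libraries, as in the key, the long bar is the group mean and the error bar 1 SD (n = 3). The groups do not overlap in any of the 6, and non-pregnant library 3 is the highest for Apoh, Fgg, Rbp4 and Fga and the lowest for Vtn and Serpina1c. Of all tested genes, 35.8% were highest and 28.5% lowest in that library.

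Spread between libraries differed by level. Among the 6 members at 100 FPKM and above, the highest library exceeded the lowest by a median of 1.25-fold, against 1.33-fold for the 267 tested genes of that level. Among the 10 members from 10 to 100 FPKM the median was 2.28-fold against 1.28-fold for 4785 genes. Among the 14 members from 1 to 10 FPKM it was 2.21-fold against 1.39-fold for 6360 genes. The members under 100 FPKM thus had a wider median spread than genes of their level, a description with no test.

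The highest value lay in non-pregnant library 2 for 14 of the 30 tested members (46.7%), where 15.6% of all tested genes had theirs, and of 8 of the 14 members from 1 to 10 FPKM. Apoa1, Gc, Serpina3k, Cps1 and F2 were among them. That library was also the one with the high endothelial markers, and the part of this in the members' values was not tested. The lowest value lay in pregnant library 3 for 13 members (43.3%), where 21.1% of all tested genes had theirs, and that library had the fewest fragments. Non-pregnant library 3 was highest for 10 of the 30 and lowest for 8. Among all tested genes, 35.8% were highest and 28.5% lowest there.

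**Figure D5:**
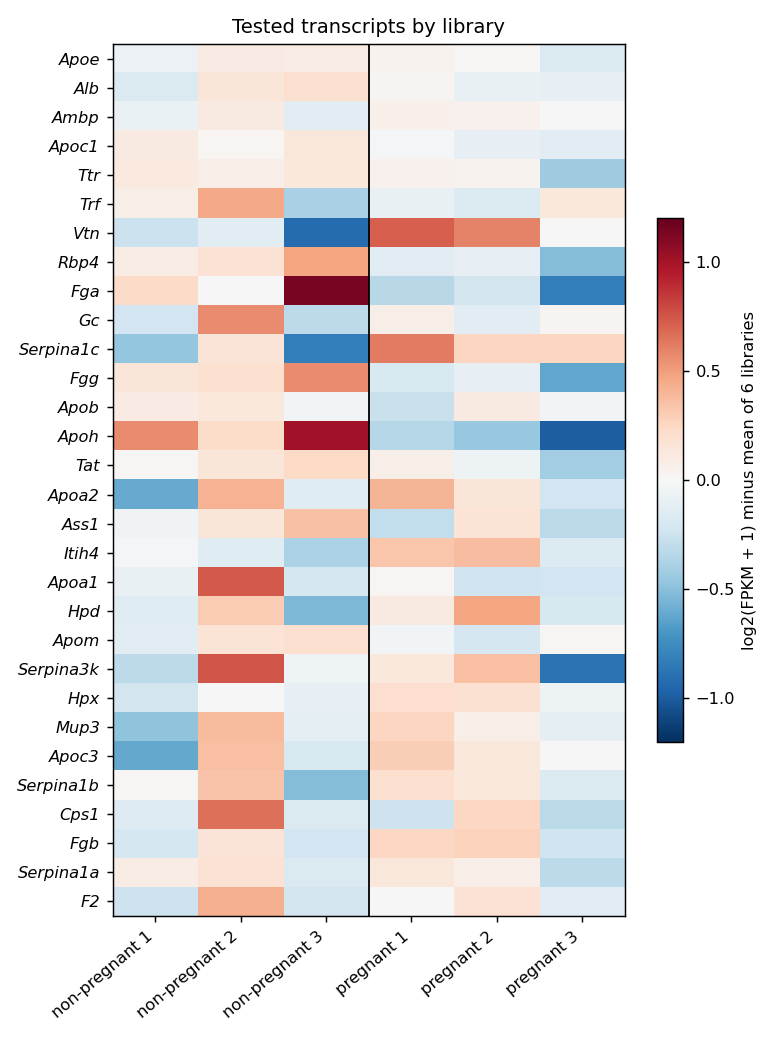
Deviation of each tested transcript in each library from its mean over the 6 libraries, as log2(FPKM + 1), with red above and blue below the mean; rows are ordered by level. Non-pregnant library 2 is above the mean for most rows of the lower part, with Apoa1, Serpina3k and Cps1 the deepest red there, and the rows of the 5 highest transcripts are pale in all 6 columns apart from Ttr in pregnant library 3.

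Other genes best known from hepatocytes were read from further lists to place the members. Of 44 other secreted plasma proteins 26 were tested, 1 passed upward and 2 downward, and their median log2 change was -0.09. Among all tested genes, 0.0613% passed upward and 0.0263% downward. A1bg, which encodes alpha-1-B glycoprotein, rose from 0.0226 ± 0.0163 to 3.91 ± 1.47 FPKM (SD, n = 3 each; limma adjusted p = 0.0357). The fetuin genes Fetub and Ahsg fell. Fetub went from 14.6 ± 1.08 to 7.78 ± 0.610 FPKM (SD, n = 3 each; limma adjusted p = 0.0357) and Ahsg from 561 ± 89.7 to 186 ± 39.7 FPKM (SD, n = 3 each; limma adjusted p = 0.0368). Serpinf2, which encodes the plasmin inhibitor alpha-2-antiplasmin, stood at 4.04 and 2.31 FPKM in the means (limma adjusted p = 0.124). Of 41 other hepatocyte enzymes and transporters 22 were tested and 0 passed with limma, with a median log2 change of -0.08. At an unadjusted p under 0.05 there were 6, against 13.4% of all tested genes. G6pc, which encodes the last enzyme of glucose release, had the smallest p of this list. It stood at 6.02, 4.0 and 9.02 FPKM outside pregnancy and at 2.86, 3.18 and 1.75 FPKM in pregnancy. Dpys, an enzyme of pyrimidine breakdown, came next and was lower in pregnancy, at 2.86 and 1.91 FPKM in the means. Asgr1, a subunit of the asialoglycoprotein receptor, followed and was higher in pregnancy, at 0.880 and 1.72 FPKM in the means. For each of these genes the limma adjusted p was 0.295.

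Of the same list, genes that define mature hepatocytes were low while Alb and Apoe were above 1000 FPKM. The 41 genes summed to 743, 761 and 917 FPKM in the non-pregnant and to 690, 694 and 586 FPKM in the pregnant libraries. The genes named next were chosen after their values were seen. Cyp7a1, the rate-limiting enzyme of bile acid synthesis, stood between 0 and 0.127 FPKM, and Otc, a urea cycle enzyme, between 0.0937 and 0.412 FPKM. Slc10a1, the bile acid uptake transporter, stood between 0.393 and 0.707 FPKM and Cyp3a11, a drug-metabolising cytochrome, between 0.463 and 1.35 FPKM. Cyp2e1, a cytochrome of central hepatocytes, stood between 0.751 and 3.20 FPKM, and 0 of the 41 genes were at 0 in all libraries. In these libraries the level of a hepatocyte gene thus ranged from below 1 FPKM to above 1000 FPKM.

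Of 18 liver transcription factors, 17 were tested and 0 passed with limma. At an unadjusted p under 0.05 there were 4 lower in pregnancy, against 6.3% of all tested genes. Hnf4a, a nuclear receptor that acts on many plasma protein promoters, stood at 27.1 ± 1.54 and 23.3 ± 1.22 FPKM (SD, n = 3 each; limma adjusted p = 0.342). Foxa3, a forkhead factor of liver, stood at 16.0 ± 1.34 and 11.2 ± 1.99 FPKM (limma adjusted p = 0.295). Creb3l3, a membrane-bound factor of the liver's lipid and acute-phase genes, stood at 5.07, 5.02 and 15.8 FPKM outside pregnancy and at 2.80, 3.55 and 1.83 FPKM in pregnancy (limma adjusted p = 0.301). Nr0b2, a repressor in bile acid feedback, stood at 23.8 and 18.4 FPKM in the means (limma adjusted p = 0.355).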

How the data were processed

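RNA was measured in 6 libraries (3 non-pregnant, 3 pregnant at dpc8), grouped and numbered by the sample titles; the descriptions number non-pregnant library 3 as 4. The authors deposited FPKM values of 21700 genes. Per the submitters' processing notes, cutadapt 3.4, STAR 2.7.9a, HTSeq 0.13.5, DESeq2 1.30.1 and build mm10 were used, and the role of each is not given in the sources used here. Ribosomal RNA was depleted and libraries made with a KAPA RNA HyperPrep kit, per the labels' protocols.

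FPKM times the GENCODE vM21 union exon length gave whole multiples of 1 step per library within 0.01 for 98.5% of the values above 0, and these multiples are the recovered fragments. A union of exons can exceed the main transcript, which lowers FPKM. Among the members so affected, the union and the longest coding transcript had 4594 and 1988 bases for F2 and 8546 and 4970 for Serpinc1. They had 2138 and 1408 bases for Apoe and 2128 and 1404 for Hpd. Intervals from fragments cover counting error only, since the reads carry no molecular identifiers.

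Log2(FPKM + 1) was fitted for the 11412 genes whose mean reached 1 FPKM with limma 3.58.1 in R 4.3.3 (trended empirical Bayes, two-sided), with Benjamini-Hochberg adjustment over all of them and a threshold of 0.05. The pseudocount of 1 FPKM understates changes of low genes. Python 3.11.15, pandas 2.3.3 and scipy 1.17.1 made tables and figures. Alternatives were other pseudocounts, filters, scalings, empirical Bayes settings, array weights, limma-voom, a replicate block and leaving out each library.

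All members, up to 4 genes of each other list by smallest p, and 5 biliary markers are named, and other names were chosen after their values were seen. The members and lists were chosen with earlier results of these data known. Promoters are from RefSeq (GRCm38.p6), and coding sequences from GENCODE vM21 on GRCm38. No sequence of Ttr is shown, and protein sequences were not used here. Some genes of the other lists are not reported here.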

Additional observations from a re-analysis of the deposited data

How the results depend on the processing

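With 3 libraries a group, 0 members passed under every setting except 2: array weights called 7, and leaving out each library in turn called between 0 and 2, the 2 without non-pregnant library 2 (Apoh and Serpina1c, where 1.17% of all tested genes were called). The reason was not tested. The median log2 change of the members was 0.06 with array weights and between -0.14 and 0.06 with a library left out. Quantile normalisation gave Ambp -0.0904 and F2 -0.0440. Array weights gave Alb 0.0839, Apoe 0.0390, Cps1 0.0216, Gc 0.14 and Serpina3k 0.24. Leaving out a library moved the log2 change through 0 for 9 members: Apoa2 (-0.0266 to 0.48), Cps1 (-0.39 to 0.0577), F2 (-0.0885 to 0.25), Gc (-0.18 to 0.26), Mup3 (-0.0551 to 0.38), Serpina1a (-0.16 to 0.0787), Serpina1b (-0.12 to 0.31), Serpina3k (-0.51 to 0.12) and Trf (-0.31 to 0.11). Over all settings run, Apoh lay between -1.38 and -0.99, Fga between -1.15 and -0.58, Vtn between 0.63 and 1.09 and Serpina1c between 0.54 and 1.03. As a share of summed FPKM the members held 3.15% in non-pregnant and 2.94% in pregnant libraries. Their share of fragments was 0.925% and 0.882% without Alb, and 0.935% and 0.878% without Apoe. The replicate numbers showed no sign of pairing: deviations of same-numbered libraries correlated at 0.068, 0.019 and -0.138. Those of differently numbered libraries correlated between -0.152 and 0.103. With 3 libraries a group, this does not settle whether same-numbered samples were handled together. A fit with the replicate number as a block called 0 members, with a lowest adjusted p of 0.0747 and 8 at an unadjusted p under 0.05 (10.8% of all tested genes). Depth limits Mup20, with at most 4 fragments in a library.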
